A study of Homo sapiens with 40 samples.

Results

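The subject is a set of 37 genes that mark dividing cells, among them the cyclins, the MCM helicase subunits, the mitotic kinases and the kinetochore genes. The members were fixed by symbol, and all 37 were found among the 62486 gene IDs of the count table. They were read in RNA-seq libraries of the lung adenocarcinoma cell line A549, of which 3 came from control cells and 3 from cells whose SETDB1 gene was disrupted with CRISPR/Cas9 and the PX458 plasmid (KO). SETDB1 encodes an enzyme that trimethylates lysine 9 of histone H3 in silent chromatin. Cells of all 6 libraries were grown in DMEM with serum. The labels give neither a time after editing, nor whether the KO line is a clone or a pool, nor what the control cells received. They also do not say that libraries of a genotype came from separate cultures, so p-values measure the spread between libraries, which may be technical.

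Library totals ran from 18065062 to 48364919 counts, and KO replicate 2 was the deepest. SETDB1 itself fell to 56.8% of its control level (log2 fold change -0.82, SE 0.060, edgeR adjusted p 1.7e-12), so its transcript was reduced and not absent. All 5 epithelial markers were higher in KO libraries at an edgeR adjusted p under 0.05, as were 32.8% of all genes tested. KRT7, KRT8 and KRT18 lie on chromosome 12, where the median log2 fold change was 0.37. Relative to this median, KRT7 stood at -0.27, KRT8 at 1.17 and KRT18 at 1.36. KRT8 rose from 2271 ± 139 to 6594 ± 261 CPM (SD, n = 3), KRT18 from 779 to 2583 CPM, EPCAM from 4.02 to 10.8 CPM and CDH1 from 27.1 to 52.4 CPM, and KRT7 went from 1550 to 1662 CPM. Of 4 alveolar type II markers, SFTPB had 0.41 CPM in control and 0.23 CPM in KO, SFTPC had 0.081 and 0.12 CPM, NKX2-1 had none in control and 0.058 CPM in KO, and SFTPA1 had no count in any library. Of 4 marker genes for cells outside the epithelium, PTPRC, a blood cell gene, had 0.033 CPM in control and none in KO, COL1A2 had no count, COL1A1 rose from 3.10 to 3.83 CPM, and CDH5, a cadherin of endothelium, rose from 0.29 ± 0.083 to 4.53 ± 0.67 CPM in KO libraries. The part of these marker changes in the fall of the cell cycle genes was not tested. CPM is the usual depth-scaled count, here with TMM-adjusted library sizes, and it is compared within a gene, not between genes.

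A dividing cell copies its DNA in S phase and separates the copies in mitosis. Before S phase, CDC6 helps to load the MCM2 to MCM7 ring onto origins, and PCNA, RRM2 and TYMS serve as polymerase clamp and nucleotide suppliers. Entry into mitosis needs CDK1 with cyclins A and B, and the spindle checkpoint holds the cell until the APC/C ubiquitin ligase, with CDC20 and UBE2C, destroys cyclin B. E2F factors are known to drive S phase genes, and the MuvB complex with MYBL2 and FOXM1 is known to drive mitotic genes through a promoter element called CHR, often next to CCAAT boxes. These genes are transcribed in cycling cells and are low in resting ones, so in RNA from a culture a fall can come from fewer cycling cells or from less RNA per cell, and these cannot be told apart.

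Promoter sequences are shown first because some letters, which the choice of genes did not use, differed in frequency between S phase and mitotic members. RefSeq promoters on GRCh38.p14, from 250 bases before to 50 bases after a gene's start, were at hand for 29 of the 37 members (9 S phase and 20 mitotic), 6 of them with more than 1 start. The 150 bases before the start are given, read 5′ to 3′ on the strand of the gene, for 5 mitotic genes and then for 3 S phase genes. They lie at chr15:59104996-59105145 (CCNB2, plus strand), chr16:23678739-23678888 (PLK1, plus), chr1:43358831-43358980 (CDC20, plus), chr2:26785906-26786055 (CENPA, plus), chr5:138178962-138179111 (KIF20A, plus), chr2:135876444-135876593 (MCM6, minus), chr20:5126623-5126772 (PCNA, minus, the first listed of its starts) and chr20:33686386-33686535 (E2F1, minus). Capitals mark CHR letters, which were searched as TTTGAA and with the variant TTCGAA, the box CCAAT, and E2F-like letters, each on either strand. The E2F-like search took the run TTCGCGC as well as the run TTGGCGC, and besides these the run TTCCCGC and lastly the run TTGCCGC. Runs longer than a motif are overlapping E2F-like matches.
CCNB2: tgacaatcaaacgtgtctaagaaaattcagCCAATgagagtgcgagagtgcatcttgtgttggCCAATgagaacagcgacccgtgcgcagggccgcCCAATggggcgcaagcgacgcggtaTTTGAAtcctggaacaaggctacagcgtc
PLK1: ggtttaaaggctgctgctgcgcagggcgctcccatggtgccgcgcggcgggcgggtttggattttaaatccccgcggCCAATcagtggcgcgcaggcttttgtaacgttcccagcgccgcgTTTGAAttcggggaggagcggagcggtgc
CDC20: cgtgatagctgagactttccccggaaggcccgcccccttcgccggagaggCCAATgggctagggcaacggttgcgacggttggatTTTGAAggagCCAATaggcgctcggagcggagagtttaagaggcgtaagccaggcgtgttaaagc
CENPA: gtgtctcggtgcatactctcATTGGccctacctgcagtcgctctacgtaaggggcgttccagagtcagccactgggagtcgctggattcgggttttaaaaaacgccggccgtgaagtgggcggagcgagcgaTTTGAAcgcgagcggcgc
KIF20A: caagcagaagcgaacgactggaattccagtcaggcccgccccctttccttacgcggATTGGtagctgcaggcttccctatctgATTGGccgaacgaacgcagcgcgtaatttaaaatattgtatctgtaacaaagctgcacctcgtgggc
MCM6: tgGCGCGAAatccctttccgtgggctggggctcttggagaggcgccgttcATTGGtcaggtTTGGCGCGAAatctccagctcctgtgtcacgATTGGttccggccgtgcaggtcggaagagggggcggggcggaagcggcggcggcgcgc
PCNA: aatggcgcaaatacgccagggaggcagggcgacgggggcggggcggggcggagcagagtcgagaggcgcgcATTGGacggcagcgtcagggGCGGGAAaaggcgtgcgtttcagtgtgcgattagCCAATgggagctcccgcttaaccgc
E2F1: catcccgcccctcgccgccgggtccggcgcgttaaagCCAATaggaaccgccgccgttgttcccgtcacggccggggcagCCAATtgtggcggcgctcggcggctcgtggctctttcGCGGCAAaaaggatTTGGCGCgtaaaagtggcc

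CHR letters were found in 14 of 20 mitotic members with a promoter and in 1 of 9 S phase members, MCM6. Among all 27305 genes of the promoter table they were found in 19.5%, and among all 35116 promoters in 16.4%, where mitotic members had them in 16 of 25 promoters. E2F-like letters were found in 9 of 9 S phase members and in 5 of 20 mitotic members, against 15.3% of all genes (13.0% of all promoters, and 10 of 13 promoters of the S phase members). CCAAT boxes were frequent in both groups, in 7 of 9 and 17 of 20, against 39.7% of all genes. In CCNB2 and PLK1 the CHR letters began 29 bases before the start, with the nearest CCAAT box at 54 and 73 bases before it. A match is a run of letters only, and CENPE had none of the 3 motifs in its window.

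**Figure D1:**
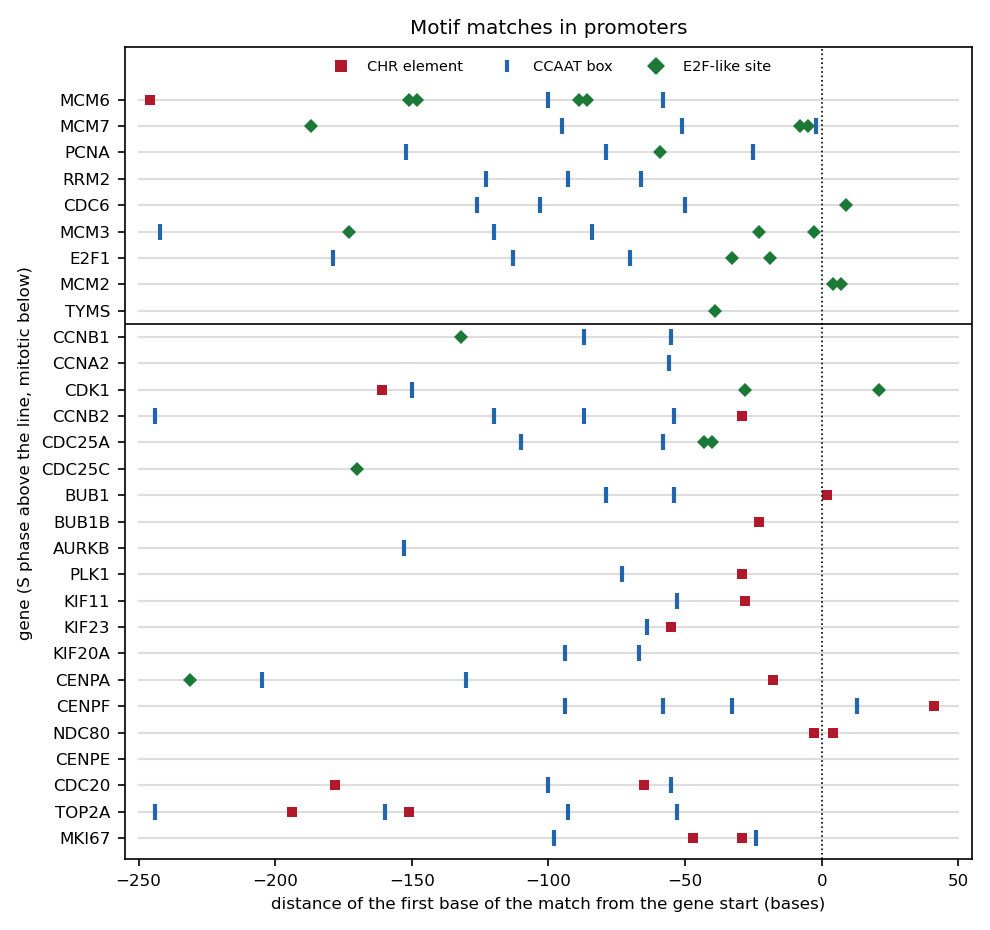
Position of CHR elements (red squares), CCAAT boxes (blue bars) and E2F-like sites (green diamonds) in the first listed promoter of the 29 members that have one, as distance in bases of the first base of the match from the gene start. Red squares lie almost all below the line that parts the 9 S phase members from the 20 mitotic members, with MCM6 as the exception, and blue bars lie on both sides of it.

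Nearly all of the cell cycle genes were lower in KO cells, with log2 fold changes from -1.21 for BUB1 to -0.17 for KIF20A among those that fell. Of the 37 members, all of which passed the expression filter, 36 were lower and 1, FOXM1, was higher at an edgeR adjusted p under 0.05. Over all 17767 genes tested, 30.0% were lower and 32.8% higher by this rule, 62.8% in all. The median log2 fold change of the members was -0.48, a 1.4-fold decrease, while that of all genes tested was 0.0038. For 35 members the 3 KO values were all under the 3 control values, as for 31.7% of all genes tested. FOXM1 had them all above, as had 34.1% of all genes, and only TYMS overlapped, where 65.8% of all genes had no overlap. A decrease of at least 2-fold was seen for 3 members, all on chromosome 2, and for 4.85% of all genes tested.

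The KO libraries resembled each other closely. Set against the control mean of each gene, the median member stood at -0.50 in KO replicate 1, -0.50 in replicate 2 and -0.51 in replicate 3 on the log2 CPM scale. In controls it stood at 0.017, -0.024 and 0.016. Each KO library had 36 of 37 members below the control mean. Members are mostly abundant transcripts, with a median at the 90.9th percentile of mean CPM. The summed level of the members went from 6867 to 7024 CPM in control to 4796 to 4928 CPM in KO libraries.

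**Figure D2:**
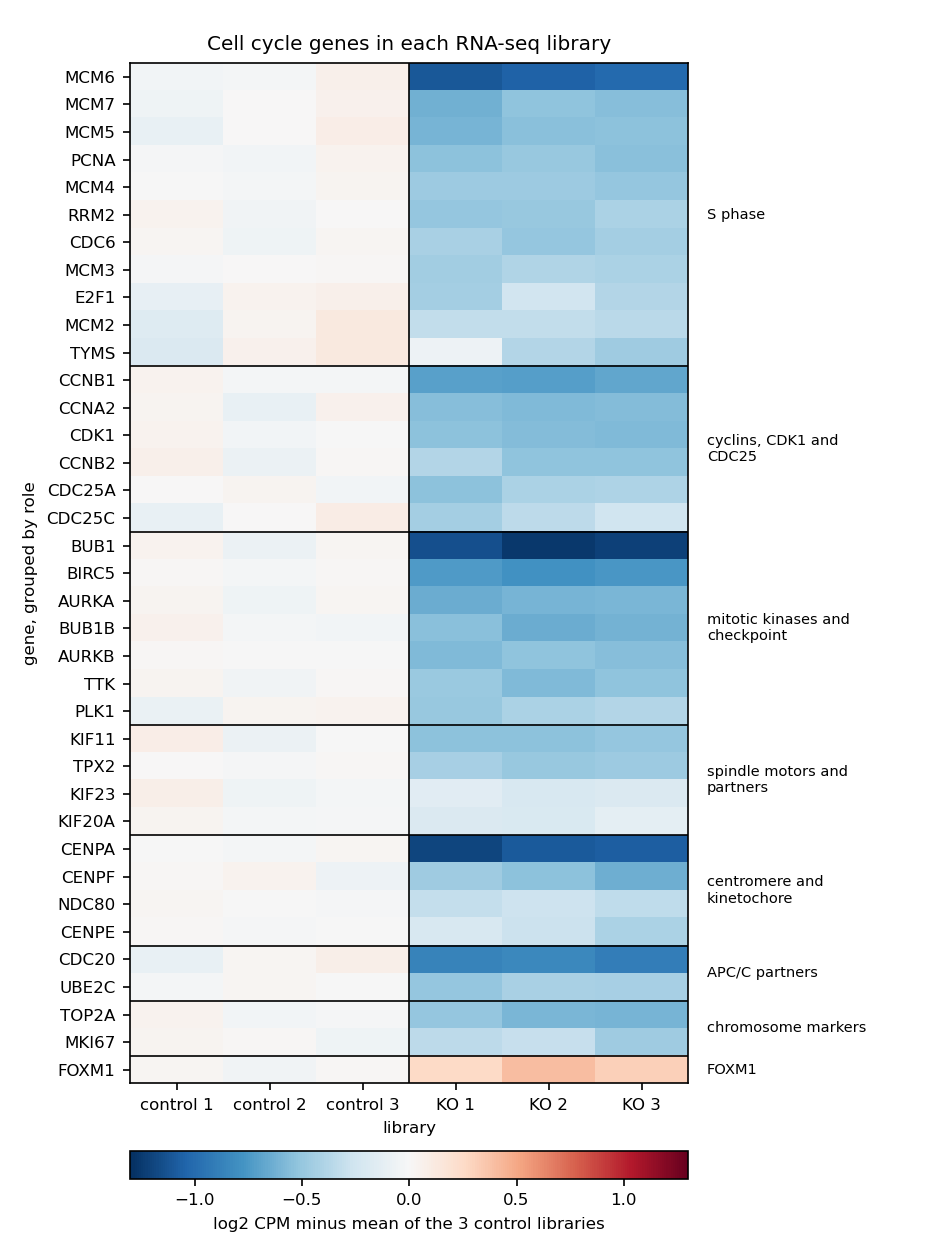
Level of each of the 37 genes (rows, grouped by role) in each of the 6 RNA-seq libraries (columns), as log2 CPM minus the mean of the 3 control libraries, in blue where lower and in red where higher. The KO columns are blue for all genes but FOXM1, which is red, and TYMS in KO replicate 1, which is nearly white, and the darkest rows are BUB1, CENPA and MCM6.

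Among the S phase members, all 11 fell, with a median log2 fold change of -0.47. The MCM genes encode the subunits of the ring that becomes the replicative helicase. MCM2, MCM3, MCM4, MCM5 and MCM7 kept 67.4% to 79.4% of their control level. MCM6 was lower than its partners. It was read at 116.7, 117.2 and 125.0 CPM in control and at 55.5, 57.7 and 59.3 CPM in KO libraries, which leaves 48.1% of the control level (log2 fold change -1.06, SE 0.047, edgeR adjusted p 3.5e-17). Relative to the mean log2 CPM of the other 5 MCM genes, MCM6 stood at -0.83, -0.89 and -0.86 in control and at -1.47, -1.46 and -1.40 in KO libraries. The genotypes did not overlap in this difference, so the MCM transcripts did not fall in proportion. MCM6 alone of them lies on chromosome 2, where the median log2 fold change of all tested genes was -0.54. After the median of its own chromosome was taken from each gene, MCM6 stood at -0.52, between MCM2 at -0.27 and MCM7 at -0.62.

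Of the other S phase genes, PCNA, the sliding clamp of the polymerases, kept 69.6% of its control level, and CDC6, the helicase loader, kept 72.9%. E2F1, a transcription factor of S phase genes, was read at 52.8, 58.9 and 59.5 CPM in control and at 41.95, 47.8 and 43.8 CPM in KO libraries (log2 fold change -0.35, SE 0.058, edgeR adjusted p 7.8e-06). RRM2, the small subunit of ribonucleotide reductase, was read at 141.6, 133.1 and 138.3 CPM in control and at 97.0, 98.0 and 103.2 CPM in KO libraries (log2 fold change -0.47, SE 0.044, edgeR adjusted p 3.5e-10). Both genes were lower in each KO library than in any control library.

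TYMS, thymidylate synthase, gave the least certain fall. Its libraries were read at 4.502, 5.299 and 5.599 CPM in control and at 4.89, 3.92 and 3.70 CPM in KO, so KO replicate 1 lay inside the control range. Its log2 fold change was -0.32 (SE 0.13, edgeR adjusted p 0.027), and the adjusted p was 0.10 with DESeq2, 0.15 without KO replicate 2, and ran from 0.0057 to 0.16 over all alternatives. RefSeq places ENOSF1 across TYMS, and ENOSF1 was read at 38.6 ± 0.68 CPM in control and 39.6 ± 1.55 CPM in KO (SD, n = 3 each). How the counting assigned reads to overlapping genes is not given in the sources used here, so the 2 genes may not be fully parted.

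In the group of cyclins, CDK1 and CDC25 phosphatases all 6 genes fell, with a median log2 fold change of -0.52. CCNB1, cyclin B1, changed most. It was read at 255.1, 242.3 and 242.0 CPM in control and at 151.6, 149.6 and 153.9 CPM in KO libraries (log2 fold change -0.70, SE 0.042, edgeR adjusted p 1.9e-14). Its partner CDK1 kept 68.0% of its control level, CCNA2 67.6% and CCNB2 72.0%. The phosphatase genes that activate CDKs changed less. CDC25A kept 73.3%, and CDC25C went from 18.1, 19.4 and 20.8 CPM to 14.3, 15.3 and 16.3 CPM (log2 fold change -0.35, SE 0.073, edgeR adjusted p 0.00015).

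The mitotic kinases and checkpoint genes had the lowest median of the role groups with more than 2 genes, -0.60 over 7 genes, all lower. BUB1, a spindle checkpoint kinase, was read at 157.4, 145.1 and 155.6 CPM in control and at 68.9, 63.8 and 65.6 CPM in KO libraries, which leaves 43.3% (log2 fold change -1.21, SE 0.047, edgeR adjusted p 1.3e-18). This was the largest fall of the 37 genes. Its relative BUB1B kept 66.0%, and TTK, the kinase upstream of both, kept 69.4%. BIRC5, or survivin, and AURKB act together in the chromosomal passenger complex, yet BIRC5 kept 59.1% and AURKB 68.3%. PLK1 changed least here, from 59.9, 64.9 and 65.5 CPM to 44.96, 47.7 and 48.6 CPM (log2 fold change -0.43, SE 0.052, edgeR adjusted p 4.4e-08).

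Spindle motors fell least as a group, with a median of -0.33 over 4 genes. KIF11, the motor that pushes spindle poles apart, was read at 230.4, 205.9 and 216.2 CPM in control and at 150.3, 150.5 and 152.8 CPM in KO (log2 fold change -0.53, SE 0.044, edgeR adjusted p 3.6e-11). TPX2, which activates AURKA on the spindle, kept 72.4%. The motors of the central spindle, KIF20A and KIF23, kept 88.8% and 88.0%. KIF20A was read at 105.0, 100.4 and 101.5 CPM in control and at 90.1, 88.9 and 93.6 CPM in KO, again with no overlap (log2 fold change -0.17, SE 0.045, edgeR adjusted p 0.0014).

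All 4 centromere and kinetochore genes fell, with a wide range. CENPA, the histone H3 variant that marks centromeres, was read at 48.0, 47.2 and 48.9 CPM in control and at 21.0, 22.5 and 22.8 CPM in KO, which leaves 46.0% (log2 fold change -1.12, SE 0.056, edgeR adjusted p 4.9e-16). CENPE, a kinetochore motor, was read at 110.8, 108.5 and 108.8 CPM in control and at 94.7, 90.03 and 82.2 CPM in KO (log2 fold change -0.30, SE 0.049, edgeR adjusted p 6.1e-06). CENPF and NDC80 kept 68.6% and 81.0%. The CENPA transcript was thus lower, relative to control, than those of the other 3 genes. CENPA lies on chromosome 2, where the median log2 fold change of all tested genes was -0.54. After the median of its own chromosome was taken from each gene, CENPA stood at -0.58 and CENPF at -0.52. CENPE and NDC80 stood at -0.33 and -0.29.

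CDC20, the APC/C activator that the checkpoint restrains, had the largest fall outside chromosome 2. It was read at 108.3, 117.4 and 121.5 CPM in control and at 63.1, 64.6 and 62.2 CPM in KO (log2 fold change -0.87, SE 0.049, edgeR adjusted p 5.4e-15). UBE2C, the E2 enzyme of the APC/C, was read at 68.4, 71.2 and 69.7 CPM in control and at 49.2, 51.9 and 51.7 CPM in KO (log2 fold change -0.45, SE 0.048, edgeR adjusted p 4.4e-09). TOP2A, topoisomerase II alpha, was read at 1360, 1290 and 1305 CPM in control and at 931.1, 874.2 and 867.9 CPM in KO (log2 fold change -0.57, SE 0.041, edgeR adjusted p 1.8e-12). MKI67, the proliferation marker Ki-67, was read at 390.6, 384.2 and 366.8 CPM in control and at 300.5, 309.2 and 276.4 CPM in KO (log2 fold change -0.36, SE 0.044, edgeR adjusted p 4.6e-08). For each of these genes the KO values were all under the control values.

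FOXM1, a transcription factor of mitotic genes, went the other way. It was read at 89.3, 85.3 and 89.1 CPM in control and at 105.3, 115.8 and 108.6 CPM in KO libraries, 125% of the control level (log2 fold change 0.32, SE 0.047, edgeR adjusted p 8.3e-07). Relative to the mean log2 CPM of the other 25 mitotic members it stood at -0.45, -0.47 and -0.44 in control and at 0.35, 0.50 and 0.41 in KO libraries. FOXM1 lies on chromosome 12, where the median log2 fold change of 854 tested genes was 0.37, and on which 562 genes were higher and 72 lower. RHNO1 and ITFG2, which overlap FOXM1 in RefSeq, were higher too, with log2 fold changes of 0.51 (SE 0.049, edgeR adjusted p 5.7e-10) and 0.28 (SE 0.082, edgeR adjusted p 0.0045). The part of these overlaps and of the chromosome in the rise of FOXM1 was not tested.

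S phase and mitotic members were then compared with each other, where mitotic means all members outside the S phase group. Their median log2 fold changes were -0.47 over 11 genes and -0.53 over 26 genes. The difference was 0.057, beside a spread between single libraries of 0.065 (the SDs of the libraries of each genotype, added in quadrature). This spread is not the error of a difference fitted over 3 libraries per genotype, and the difference was not tested. By library, the S phase median minus the mitotic median was -0.063, 0.030 and 0.059 in control and 0.030, 0.039 and 0.057 in KO, and these ranges overlap. Here too each gene was set against its own control mean, which centres the control values near 0. Without chromosomes 2 and 12 the ranges of fold changes overlapped as well, from -0.57 to -0.32 over 9 S phase genes and from -0.87 to -0.17 over 23 mitotic genes. A narrower mitotic group, on all chromosomes but without CDC25A, CCNA2, MKI67, TOP2A and FOXM1, had a median of -0.53 over 21 genes. Members with CHR letters had a median of -0.54 over 15 genes and members without them -0.45 over 14 genes, with ranges that overlap. Chromosome 2 members were kept in this split, and MCM6, BUB1 and CENPA of them have CHR letters.

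Members on chromosome 2 were compared with the rest. MCM6, BUB1, CENPA and RRM2 lie there, and their median log2 fold change was -1.09, against -0.48 over the other 33 members. By library, the difference of these medians was 0.0030, -0.019 and 0.014 in control and -0.65, -0.58 and -0.54 in KO, with no overlap. Each gene was first set against its own control mean, so control values lie near 0 by construction. Genes of chromosome 2 were low as a whole, with a median of -0.54 over 1049 tested genes, of which 72.3% were lower, against 28.1% of 14569 genes placed elsewhere. After the median of its own chromosome was taken from each gene, MCM6 stood at -0.52, BUB1 at -0.67 and CENPA at -0.58. These values lie inside the range of the other chromosomes' members, and the difference between the medians of chromosome 2 members and others shrank from -0.61 to -0.053. RRM2 differed from the other 3. It stood 0.068 above the median of its chromosome, and 0.032 above the median of its 51 neighbouring tested genes. Whether the shift of chromosome 2 took part in these falls was not tested.

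**Figure D3:**
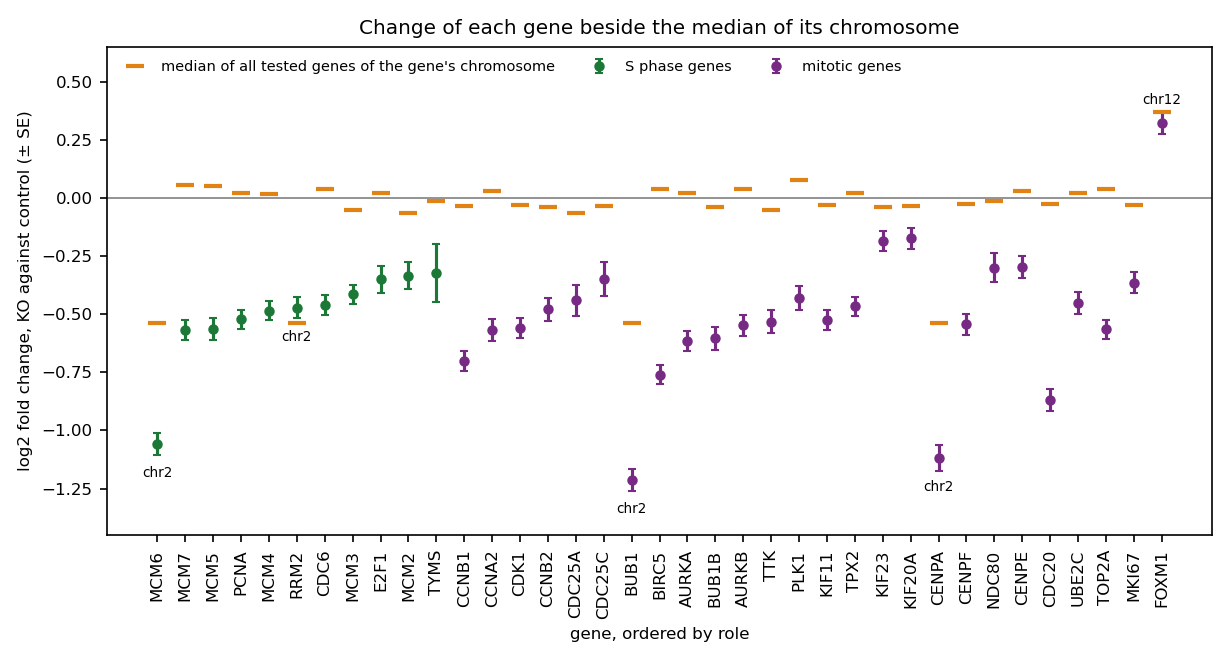
Log2 fold change of each of the 37 genes in KO against control (points with SE bars; S phase genes in green, mitotic genes in purple) beside the median log2 fold change of all tested genes of its chromosome (orange dashes). The dashes lie near 0 except for the 4 genes of chromosome 2, at -0.54, and for FOXM1 on chromosome 12, at 0.37.

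With chromosome medians removed, the decrease of the set as a whole remained. The median over all 37 members was -0.50 after the chromosome median was taken away and -0.45 after the median of the 51-gene neighbourhood was taken away. By the second measure 35 of 37 members were below 0, and FOXM1 (0.028) and RRM2 (0.032) were the exceptions. KIF23 was near 0 too, at -0.029, with a neighbourhood median of -0.16. The largest falls relative to neighbours were those of CDC20 (-0.84), BIRC5 (-0.75), CENPA (-0.68) and MCM7 (-0.67).

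Most genes of 2 further lists, of replication and of mitosis, moved the same way. Over all genes tested, 30.0% were lower and 32.8% higher. Of 49 other replication genes, 43 fell and none rose, and 6 did not pass (median -0.34). The largest falls were those of RFC3, a clamp loader subunit, from 72.2 ± 3.37 to 34.3 ± 1.25 CPM (SD, n = 3; log2 fold change -1.08), and GINS4, a helicase partner, from 35.2 ± 0.47 to 18.5 ± 0.74 CPM (-0.93). Of 67 other mitotic genes, 60 fell, none rose and 7 did not pass (median -0.44). HJURP, the chaperone that loads CENPA at centromeres, went from 240.0 ± 4.39 to 63.2 ± 0.97 CPM (-1.93), and SGO2, which protects centromeric cohesion, from 51.8 ± 1.75 to 21.0 ± 1.65 CPM (-1.31). Both lie on chromosome 2, where HJURP stood at -1.39 and SGO2 at -0.77 relative to the median of the chromosome.

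These genes were also set out by chromosome. The 7 other replication and mitotic genes on chromosome 2 all fell, with a median of -1.01. The 8 on chromosome 12 had a median of -0.057, and only POLE and PRIM1 of them passed the test, both lower. The 5 on chromosome 19, a chromosome whose median was 0.34, had a median of -0.17, and 4 of them fell, with SPC24, a kinetochore gene, at -0.30. The 96 on other chromosomes had a median of -0.44, with 90 lower and none higher. The genes on chromosomes 12 and 19 all lay below the median of their chromosome. As background, 72.3% of all 1049 tested genes of chromosome 2 were lower, and 30.0% of all genes tested. On chromosome 12, 72 of all 854 tested genes were lower and 562 higher. On chromosome 19, 127 of all 1137 tested genes were lower and 669 higher.

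**Figure D4:**
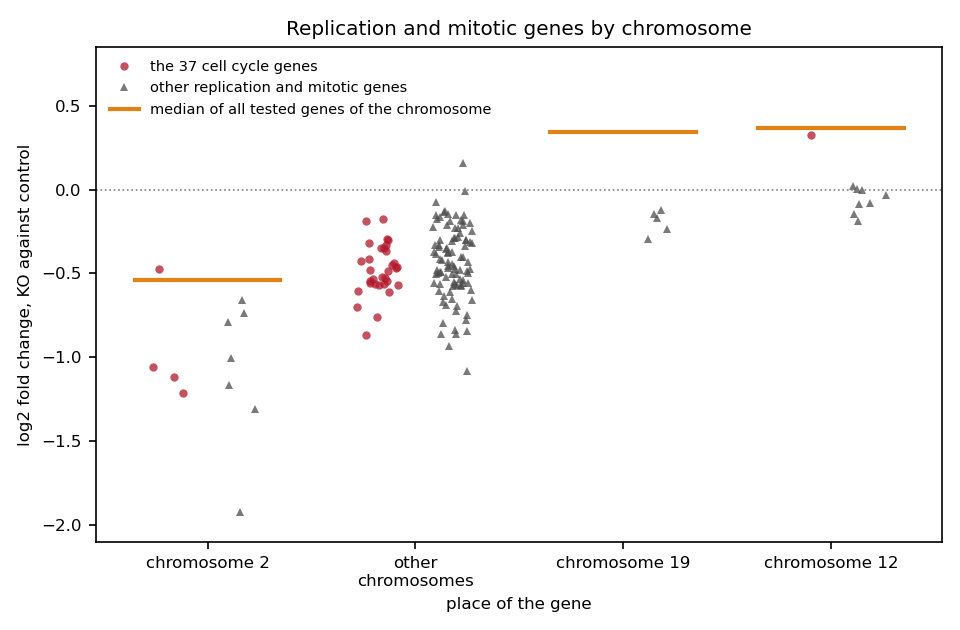
Log2 fold change in KO against control of the 37 cell cycle genes (red circles) and of 116 other replication and mitotic genes (grey triangles), by the chromosome they lie on, with the median of all tested genes of chromosomes 2, 19 and 12 as orange lines. The lowest points, HJURP at -1.93 and SGO2 at -1.31, are on chromosome 2. The range of chromosome 2, with RRM2 highest at -0.47, overlaps that of the other chromosomes. It does not overlap those of chromosomes 19 and 12, whose lowest points are at -0.30 and -0.19. Of the points of chromosomes 2, 19 and 12 only RRM2 lies above its line.

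Replication-dependent histone genes, whose mRNA is made in S phase and mostly lacks a poly(A) tail, were also read, since the libraries were made from total RNA. Of 62 such genes 54 were tested, and 37 fell, 8 rose and 9 did not pass (median -0.41). Of all genes tested, 30.0% were lower and 32.8% higher. Their summed level was 6550, 6549 and 6966 CPM in control and 4856, 5239 and 5153 CPM in KO libraries, with no overlap. The largest called falls were those of H3C15 and H4C15, which are low and whose calls rest on few reads (H3C15 had 22, 8 and 22 counts in control and 10, 11 and 9 in KO, and its adjusted p was 0.087 without KO replicate 2). H2BC9 rose from 5, 3 and 7 counts to 464, 1017 and 525 counts, from 0.21 ± 0.038 to 21.4 ± 1.71 CPM (log2 fold change 6.62, edgeR adjusted p 4.9e-23). H1-5, a linker histone gene, rose from 20.9 ± 1.35 to 113.0 ± 3.90 CPM (log2 fold change 2.43, edgeR adjusted p 6.0e-24). Histone genes are near-identical copies, and how shared reads were counted is not given in the sources used here.

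Upstream regulators leaned lower, though not all moved the same way. Of 19 E2F, pocket protein and MuvB genes 12 fell, 2 rose and 5 did not pass (median -0.24). Over all genes tested, 30.0% were lower and 32.8% higher. MYC went from 92.6 to 50.3 CPM (log2 fold change -0.88) and RBL1, or p107, had a log2 fold change of -0.68, whereas RBL2, or p130, and TFDP2 rose by 0.27 and 0.31. MYBL2, the mitotic partner of MuvB, fell by 0.24. RB1 had a log2 fold change of -0.12 (edgeR adjusted p 0.039, but 0.075 with DESeq2 and 0.19 without KO replicate 2).

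Of the G1 cyclins, CDKs and their partners, 9 of 13 tested genes fell and 2 rose (median -0.34). Of all genes tested, 30.0% were lower and 32.8% higher. Cyclin D3, CCND3, had the largest fall, from 225.9 ± 7.66 to 86.2 ± 3.91 CPM (log2 fold change -1.39), and CKS2, a CDK-binding subunit, went to -0.88. CCND1 fell by 0.35 and CDK6 by 0.34 on the log2 scale. CCNE1, cyclin E1, which drives entry into S phase, rose by 0.38, and CDK4 by 0.17. They lie on chromosomes 19 and 12, and relative to the median of its chromosome CCNE1 stood at 0.042 and CDK4 at -0.20. CCNE2 had a log2 fold change of 0.19 (edgeR adjusted p 0.12).

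Of 6 CDK inhibitor genes tested 2 fell, 2 rose and 2 did not pass, near the shares of all genes tested (30.0% lower and 32.8% higher). CDKN2C, or p18, rose from 13.4 ± 0.51 to 43.1 ± 2.23 CPM (log2 fold change 1.69, edgeR adjusted p 8.7e-19), and CDKN1B, or p27, from 32.7 ± 0.25 to 61.6 ± 1.26 CPM (0.91, edgeR adjusted p 5.1e-15). CDKN1B lies on chromosome 12 and stood 0.54 above its median. CDKN1A, or p21, fell by 0.27 and CDKN3 by 0.72. CDKN2A and CDKN2B had 0 counts in all 6 libraries, where a count of 0 allows up to 0.061 to 0.17 CPM per library (3 counts, counting error only). Of 17 APC/C core and associated genes 6 fell, 5 rose and 6 did not pass (median -0.087), again near the shares of all genes, and without KO replicate 2 the number that rose was 3. ANAPC1, on chromosome 2, and ANAPC10 fell by 1.01 and 0.73, and ANAPC5, on chromosome 12, and CDC26 rose by 0.29 and 0.26 (CDC26 with an edgeR adjusted p of 0.043, and of 0.16 without KO replicate 2).

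**Figure D5:**
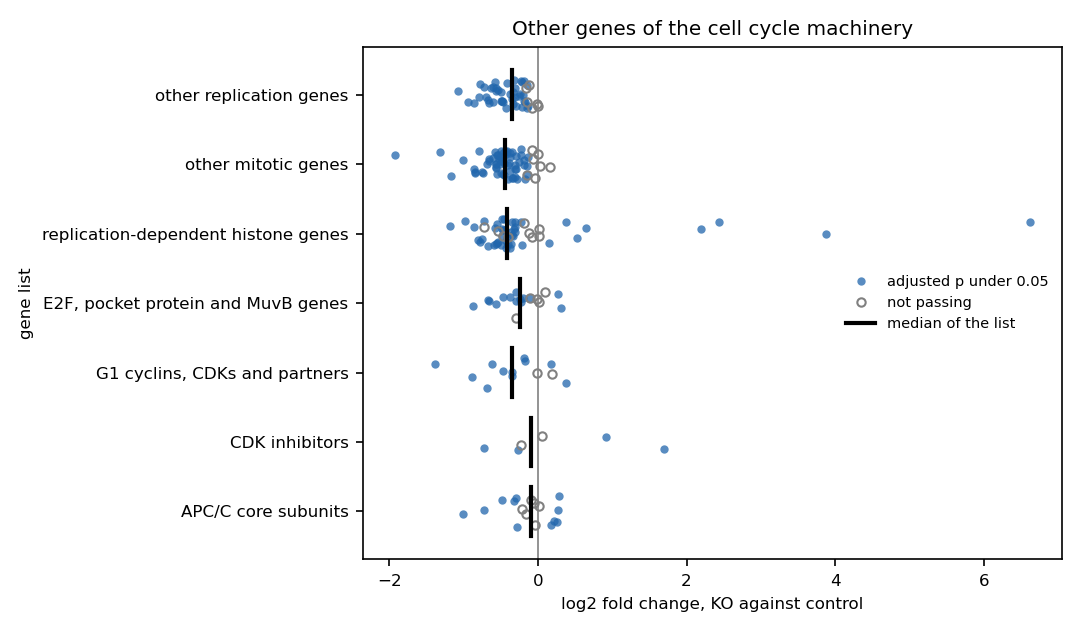
Log2 fold change in KO against control of each tested gene of 7 lists of cell cycle genes outside the 37, filled where the edgeR adjusted p was under 0.05 and open where it was not, with the median of each list as a black bar. The replication, mitotic and histone lists sit left of 0 with medians from -0.44 to -0.34, the CDK inhibitors and APC/C genes spread to both sides, and H2BC9 lies far right at 6.62.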

How the data were processed

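Per the labels, the 6 RNA-seq libraries were built with a stranded kit from total RNA. The authors deposited whole-number counts per gene; the submitters' processing notes name STAR 2.6.1c, edgeR 3.30.0 and hg19, without saying which step used them, and neither the counter nor its use of strand is given in the sources used here. Peak, TAD and compartment files were not used, for want of a gene annotation of hg19. Of 62486 gene IDs, 93.8% matched a symbol. Chromosome, gene order and overlaps came from RefSeq on GRCh38.p14 (87.9% of tested genes placed).

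Counts of the 17767 genes that passed filterByExpr were tested by edgeR 4.0.16 under R 4.3.3 after TMM scaling. Genotype was the sole factor of a robust quasi-likelihood fit, and p-values were adjusted by Benjamini-Hochberg over all genes and called at 0.05. A fold change of a list is a median, with no test. On 10 simulated data sets of KO against control (on average 17353 genes), 68.7% of 1.4-fold and 90.4% of 2-fold changes were recovered, and 8.05% of calls were false, above the 5 percent aimed at. Whether these rates hold for the measured counts, where 62.8% of genes tested were called, was not tested. Replicates all differed by more than sampling noise (chi-square per degree of freedom 1.66 to 6.70).

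Members and lists were chosen with earlier results of these data known. Libraries are given in full for the largest and smallest change of each role group, chromosome 2 members, E2F1 and FOXM1; of the other lists, the 2 largest calls each way whose lower group had 10 counts or more, and 10 fixed regulators. Genes named beyond this, such as neighbours of H2BC9, were chosen after their values were seen. Alternatives were DESeq2 1.42.0, limma 3.58.1 voom, other scalings and filters, a replicate block, leaving out each library or mitochondrial genes, and chromosome centring. Python 3.11.15 was used for promoters.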

Additional observations from a re-analysis of the deposited data

How the results depend on the processing

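Of 1215 values under alternatives, 1184 were kept. Kept means the same direction and call for a gene, and a shift within the spread between libraries for a median. For a count of genes it means a fixed ratio to the main count. No fold change or median reversed, and a count has no direction to reverse. Of the 37 members, 36 kept their call under every alternative run, and TYMS did not. The median change of the members was -0.52 under upper quartile scaling, -0.46 with library size only, -0.45 without an expression filter and -0.45 against the 51-gene neighbourhood, an alternative chosen after seeing the data, and it ran from -0.51 to -0.47 when each library was left out. These scalings moved the median of all genes by -0.035 and 0.031. The gap between chromosome 2 members and the others was -0.053 against chromosome medians and -0.0068 against neighbourhoods, since both settings take away the shift of the chromosome. The number of APC/C genes that rose was 3 to 5 when each library was left out. Same-numbered libraries did not pair (correlations of deviations 0.11, 0.064 and 0.047), and with a replicate block 36 members were called lower and 1 higher, with a median of -0.48. With only the 250 bases before the start, CHR letters were in 11 of 20 mitotic and 1 of 9 S phase members, and E2F-like letters in 5 and 7. Calls changed in 7 of 14 alternatives for TYMS and for RB1, in 6 of 14 for CDC26, in 1 of 13 for H3C15 and in 1 of 14 for CCNE2, and the cause was not tested.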

Other observations

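Most of the histone genes that rose were neighbours on chromosome 6. In RefSeq order, the 42 tested histone genes there begin with 15 genes of which 13 fell and 2 did not pass. Of the next 6, H2AC8, H3C6, H3C7, H2BC9 and H3C8 rose (log2 fold changes 3.88, 0.64, 0.53, 6.62 and 2.19), with H1-3, which fell by 0.85, between them. H1-5 and H3C11, which also rose (2.43 and 0.38), are adjacent further along. H2AC8 rests on 1, 0 and 2 control counts against 14, 36 and 15 in KO libraries. This stretch was singled out after its values were seen, and near-identical sequences among these genes limit the assignment of reads.

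KIF23-AS1, an RNA gene that overlaps KIF23 in RefSeq, went from 3.34 ± 0.58 to 1.51 ± 0.024 CPM (SD, n = 3 each; log2 fold change -1.13, SE 0.16, edgeR adjusted p 8.2e-07), against -0.19 for KIF23 itself. RefSeq has 18 of the 37 members overlapping another gene, 8 of them a protein-coding one.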
